A study of Mus musculus with 11 samples.

Results

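The myosin heavy chain family of striated muscle was followed through 11 gastrocnemius libraries. They came from wild-type mice and from mice with muscle deletions aimed at the growth kinase complex mTORC1. The family was taken as 8 listed genes, Myh1, Myh2, Myh3, Myh4, Myh6, Myh7, Myh7b and Myh8, each found by its Ensembl row, out of 55487 genes in the count tables. Of these 8 genes, 7 passed the filter on low counts and were tested among 10505 genes, and Myh7b did not pass. The mice were wild type (4 libraries), carried an inducible muscle-specific deletion of floxed Raptor (3 libraries), or carried deletions of floxed Raptor and floxed mTOR together (4 libraries). Raptor (gene Rptor) is the scaffold of mTORC1, and mTOR (gene Mtor) is the kinase of both mTOR complexes. The Cre recombinase was joined to a mutated oestrogen receptor domain and placed under the human skeletal actin promoter, so deletion is aimed at muscle fibres and the other cells of the muscle keep their alleles. Per the labels, mice of all 3 groups received tamoxifen from 3 months of age, in chow for 7 weeks, and muscle was taken 7 months after the treatment was begun. Whether the wild-type mice carried Cre or floxed alleles is not stated there. RNA was read as 3' tags (QuantSeq 3' mRNA FWD), in which a read marks the end of a polyadenylated transcript. The labels do not state that each library is a separate animal, so the p-values measure the spread between these libraries.

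A myosin heavy chain carries the ATPase head that pulls on actin and the long tail that packs into the thick filament, and its isoform sets how fast a fibre contracts. In adult mouse limb muscle Myh4 (type 2B) marks the fastest glycolytic fibres, Myh1 (2X) and Myh2 (2A) mark fast fibres of rising oxidative capacity, and Myh7 (type 1, beta) marks slow fibres. Myh3 (embryonic) and Myh8 (perinatal) are the developmental isoforms, which fall silent after birth and return in regenerating or denervated fibres. Myh6 (alpha) is the fast isoform of the heart, and Myh7b is an ancient slow-type member.

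The genes lie in 2 clusters and 1 single locus on GRCm38 in the GENCODE M21 annotation. Myh3 (chr11:67078300-67102291), Myh2 (chr11:67171027-67197517), Myh1 (chr11:67200052-67224575), Myh4 (chr11:67238029-67260446) and Myh8 (chr11:67277124-67308634) follow each other on the plus strand of chromosome 11. Myh6 (chr14:54941921-54966927) and Myh7 (chr14:54970684-54994626) are 3.757 kb apart on the minus strand of chromosome 14, and Myh7b (chr2:155611212-155634307) stands alone on chromosome 2. The 250 bases before the RefSeq start of each chromosome 11 gene (GRCm38.p6, plus strand) are shown because these neighbours differed most in how they changed. Capitals mark stretches built of 12-base words that also occur in the promoter of another of these genes. The windows are chr11:67078050-67078299 for Myh3, chr11:67170777-67171026 for Myh2, chr11:67199852-67200101 for Myh1, chr11:67237562-67237811 for Myh4 and chr11:67276874-67277123 for Myh8.
Myh3: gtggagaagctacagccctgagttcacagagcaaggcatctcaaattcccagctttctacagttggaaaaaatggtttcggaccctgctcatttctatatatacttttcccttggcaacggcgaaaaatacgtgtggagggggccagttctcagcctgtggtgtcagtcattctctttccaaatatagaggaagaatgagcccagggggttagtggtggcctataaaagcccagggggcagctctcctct
Myh2: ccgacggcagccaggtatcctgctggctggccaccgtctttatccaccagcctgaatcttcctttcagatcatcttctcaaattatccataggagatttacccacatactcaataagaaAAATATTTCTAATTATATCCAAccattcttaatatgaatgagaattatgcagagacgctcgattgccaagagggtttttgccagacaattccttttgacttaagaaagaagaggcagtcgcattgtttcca
Myh1: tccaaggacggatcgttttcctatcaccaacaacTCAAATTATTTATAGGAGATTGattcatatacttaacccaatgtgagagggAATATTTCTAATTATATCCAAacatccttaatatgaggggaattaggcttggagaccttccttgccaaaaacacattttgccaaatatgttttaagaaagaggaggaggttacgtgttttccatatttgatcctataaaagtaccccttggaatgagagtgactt
Myh4: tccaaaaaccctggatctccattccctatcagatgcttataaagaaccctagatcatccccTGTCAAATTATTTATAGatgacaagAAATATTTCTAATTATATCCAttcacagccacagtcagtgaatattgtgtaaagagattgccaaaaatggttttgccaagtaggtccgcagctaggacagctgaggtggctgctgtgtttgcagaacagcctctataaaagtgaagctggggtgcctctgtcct
Myh8: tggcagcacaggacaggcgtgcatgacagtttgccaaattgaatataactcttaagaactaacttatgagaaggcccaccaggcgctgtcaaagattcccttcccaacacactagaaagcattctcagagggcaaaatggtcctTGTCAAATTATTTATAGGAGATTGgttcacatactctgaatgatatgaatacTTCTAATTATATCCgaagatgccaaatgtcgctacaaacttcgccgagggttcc

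The promoters of Myh2, Myh1, Myh4 and Myh8 shared the 14-base run TTCTAATTATATCC, which was found on either strand in 4 of 32841 RefSeq promoters of 300 bases, namely in these 4. The run was not in the Myh3 window, whose longest run shared with another cluster promoter was 11 bases (with Myh4). Myh1, Myh4 and Myh8 each held a match to the MEF2 consensus, TTATTTATAG in all 3, a motif found in 3.19% of all promoters on either strand. The E-box CANNTG, read by MyoD and myogenin, was in 6 of the 8 members' promoters and in 72.3% of all promoters. The TATA motif TATAAA was in 6 of 8 members against 13.6% of all promoters, with 3 of its matches inside the MEF2 matches. Close before the start it was found only in Myh3, Myh1 and Myh4, at -29, -32 and -31. The matches of Myh2 and Myh6 began after the start, at 10 and 1, and Myh8 had no match outside its MEF2 match. The MCAT motif CATTCC was in 4 of 8 members against 14.7%, the CArG box in Myh4 alone among members against 1.63%, and TCAGGTT in 0 of 8 against 4.07%. These are matches of letters and not shown binding sites.

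The 3' ends are where the tags fall, and some of them are alike between neighbours. The last 60 coding bases with the stop codon are given for Myh4 (chr11:67260281-67260340), Myh1 (chr11:67224410-67224469) and Myh2 (chr11:67197329-67197388), with capitals where a base differs from Myh4. The same stretch is shown for Myh7 and for the best matching 60 bases of Myh6, which end 3 bases before the end of its stop codon, with capitals where Myh6 differs from Myh7. Both of these run over 2 exons.
Myh4: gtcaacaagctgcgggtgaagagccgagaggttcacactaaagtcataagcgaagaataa
Myh1: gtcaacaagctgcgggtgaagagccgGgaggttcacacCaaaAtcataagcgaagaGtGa
Myh2: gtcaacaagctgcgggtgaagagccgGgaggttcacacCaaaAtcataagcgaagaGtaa
Myh7: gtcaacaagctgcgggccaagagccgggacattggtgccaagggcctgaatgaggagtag
Myh6: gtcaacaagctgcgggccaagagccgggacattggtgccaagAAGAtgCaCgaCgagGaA

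Myh1 differed from Myh4 at 5 of the 60 bases, Myh2 at 4, and Myh6 from Myh7 at 9. Over the last 200 bases of the longest coding transcript, 70.9% of the 50-base words of Myh7 were also in a Myh6 transcript, and 46.4% of those of Myh6 were in a Myh7 transcript. The shared percentage was 28.5% for Myh1, 13.2% for Myh2 and 7.28% for Myh4, and 0 for Myh3, Myh8 and Myh7b. The deposited counts of all members except Myh7b were fractional in 11 of 11 libraries, so part of the reads had been divided among genes or transcripts. The split between Myh6 and Myh7, and to a lesser degree among Myh1, Myh2 and Myh4, is therefore less certain than their sums.

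Myh6, Myh7 and Myh7b also carry microRNAs in their transcribed regions, as does Myh3 (miR-6923-5p, not shown). Those below are shown because their host genes include both genes of the slow cluster. The seeds, bases 2 to 8, are in capitals, and the sequences are from RefSeq.
miR-208a-3p (Myh6): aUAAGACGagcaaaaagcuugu
miR-208b-3p (Myh7): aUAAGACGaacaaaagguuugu
miR-499-5p (Myh7b): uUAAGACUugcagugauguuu

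miR-208a-3p and miR-208b-3p shared the seed UAAGACG, and miR-499-5p had UAAGACU. The microRNAs themselves were not measured by this poly(A) tag assay.

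Library totals ran from 2791339 to 6328533 counts, and CPM stands for counts scaled by TMM to a common library total. Rptor stood at 8.57 to 10.6 CPM in wild type and at 3.85 to 5.37 CPM in all 7 knockout libraries. Mtor stood at 15.2 to 28.2 CPM in wild type, 18.2 to 22.6 in Raptor-knockout muscle and 31.8 to 39.5 in the libraries labelled double knockout. In deposited TPM, which are divided by transcript length, Mtor ran from 1.97 to 4.98, 2.83 to 3.12 and 26.8 to 38.7 in turn. The cause of the larger step in TPM was not tested. The exons that the floxed alleles lose are not given in the sources used here. Thus 3' tags of Mtor and Rptor do not check the deletions, and the labels were taken as given. Xist, the RNA of the silenced X, was present (95.6 to 208 CPM) in 4 libraries, the third of wild type and the first 3 of the double knockout, and was at most 0.291 CPM in the other 7. Double-knockout replicates 3 and 4 came from a smaller sequencing run that held no other group. Fits without these 2 libraries, and fits of the 7 libraries lacking Xist, in which double-knockout replicate 4 is the only double knockout and is assumed to vary like the other groups, are given where they change a result.

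In wild-type muscle Myh4 dominated the family. On the deposited TPM scale, which divides by transcript length, the wild-type means were 4712 ± 821 for Myh4, 244 ± 32.1 for Myh1, 229 ± 76.1 for Myh2, 61.1 ± 24.3 for Myh6, 13.2 ± 3.41 for Myh7, 0.488 ± 0.166 for Myh3, 0.368 ± 0.188 for Myh8 and 0.263 ± 0.209 for Myh7b (SD, n = 4). On this scale Myh1 and Myh2 did not differ beyond their spread, nor did Myh3, Myh8 and Myh7b among themselves. In CPM, wild-type Myh7b was at most 0.358, below Myh8 at 1.07 to 4.73 and Myh3 at 2.15 to 4.83. The place of Myh6 above Myh7 holds only on the deposited TPM scale. The longest coding transcripts are of like length, 6113 bases for Myh6 and 6230 for Myh7. The shortest annotated ones have 376 and 345 bases. The cause of this order in TPM was not tested. In CPM, not divided by length, Myh7 stood above Myh6 in every library, and 1 CPM, here without the TMM scaling, of Myh6 was worth 1.99 ± 0.0584 TPM in wild type and of Myh7 0.158 ± 0.00461 TPM.

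**Figure D1:**
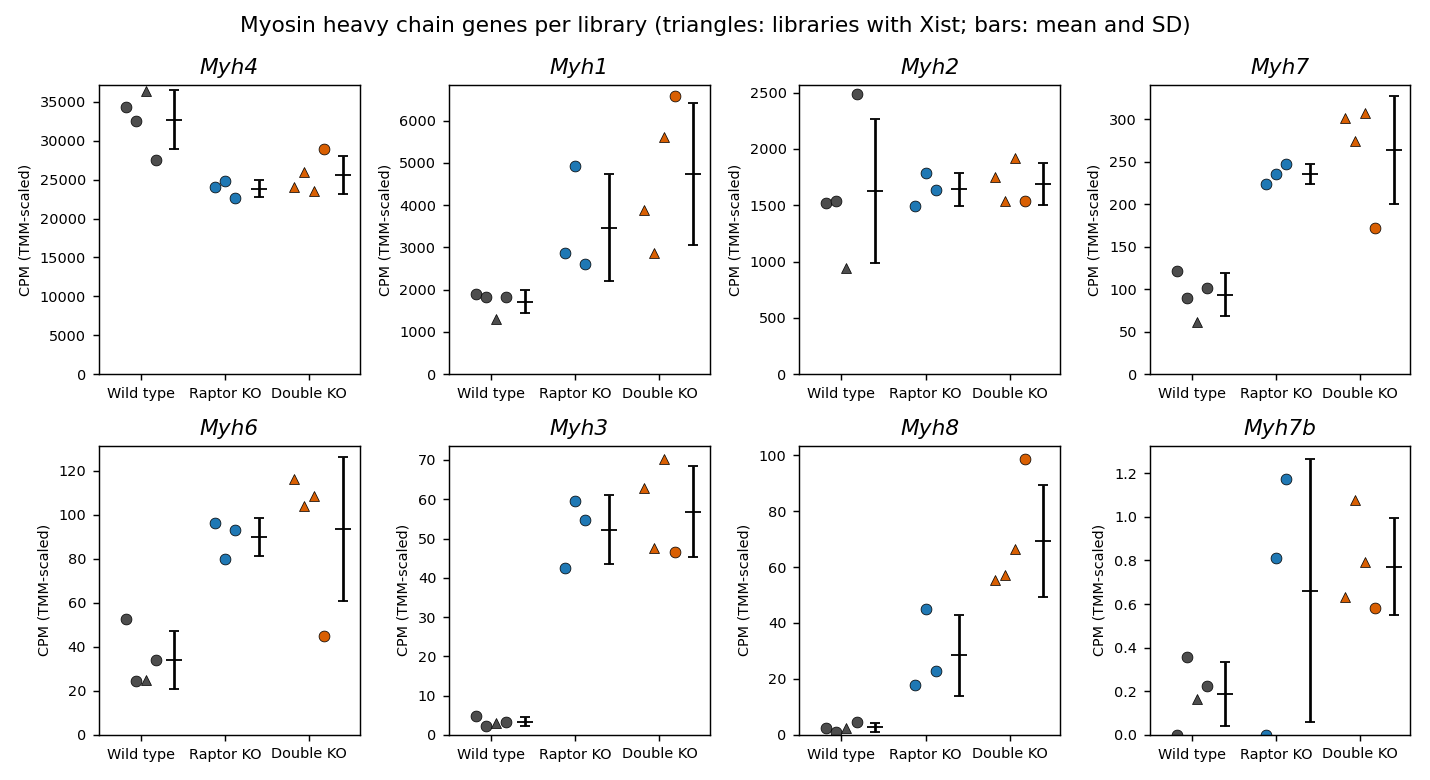
Levels of the 8 genes per library in TMM-scaled CPM (vertical axes, each from 0) by genotype (horizontal axes). Circles and triangles are single libraries, triangles those with Xist, and the bars give mean and SD (n = 4, 3 and 4). The Myh3 and Myh8 points of all 7 knockout libraries lie above all wild-type points, whereas the Myh2 points of the 3 groups overlap.

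Against wild type, 5 of the 7 tested members rose and 1 fell in the double knockout, where 26.7% of all tested genes were called in either direction (13.0% higher, 13.7% lower). The Raptor knockout gave the same counts, 5 higher and 1 lower, against 18.2% of all tested genes (8.73% higher, 9.43% lower). The 5 that rose were Myh1, Myh3, Myh6, Myh7 and Myh8 in both comparisons, Myh4 fell in both, and Myh2 was not called in either. The 2 comparisons share the 4 wild-type libraries, and the members were listed with earlier results of these data known. Groups did not overlap for 4 higher and 0 lower members in the double knockout, against 26.8% of tested genes (13.1% higher, 13.6% lower). In Raptor-knockout muscle they did not overlap for 5 higher and 1 lower, against 27.3% (14.0% higher, 13.2% lower). In whole muscle, fewer fibres of a type and less RNA per fibre cannot be told apart.

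The developmental isoforms moved furthest. Myh3, the embryonic heavy chain, stood at 4.83, 2.15, 3.13 and 3.38 CPM in the 4 wild-type libraries, on 6 to 21 counts. It reached 42.6, 59.6 and 54.6 CPM in Raptor-knockout muscle and 62.9, 47.7, 70.2 and 46.5 CPM in the double knockout. The lowest knockout library thus lay far above the highest wild-type library. The log2 fold change of Myh3 was 3.91 ± 0.24 (SE) in the Raptor knockout (edgeR adjusted p = 2.00e-07) and 4.03 ± 0.23 in the double knockout (adjusted p = 3.77e-08).

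Myh8, the perinatal heavy chain, stood at 2.53, 1.07, 2.30 and 4.73 CPM in wild type, on 3 to 21 counts. It stood at 17.7, 44.9 and 22.9 CPM in Raptor-knockout muscle and at 55.3, 57.1, 66.5 and 98.5 CPM in the double knockout. The 3 groups did not overlap, with wild type lowest and the double knockout highest. Its log2 fold change was 3.36 ± 0.41 in the Raptor knockout (edgeR adjusted p = 0.000144) and 4.64 ± 0.39 in the double knockout (adjusted p = 3.42e-06). Myh8 reached the count filter in 1 of 4 wild-type libraries and in all 7 knockout libraries, so it was tested through the groups in which it was high, and Myh3 reached it in 3 of 4 wild-type libraries. Per length the same 2 genes went from 0.488 TPM (Myh3) and 0.368 TPM (Myh8) in wild type to 9.20 ± 2.37 and 10.8 ± 2.72 TPM in the double knockout. The double-knockout Myh8 values, 8.55 to 14.6 TPM, overlapped the wild-type Myh7 values of 9.26 to 17.6 TPM.

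**Figure D2:**
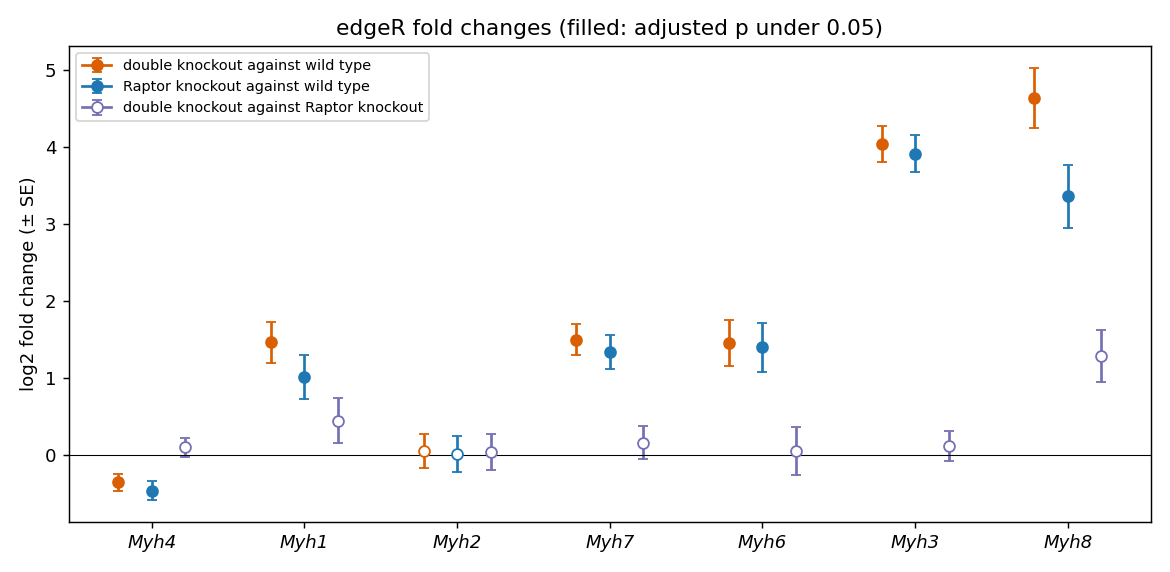
log2 fold changes with SE (vertical axis) of the 7 tested members (horizontal axis) in the 3 comparisons, from edgeR over all 11 libraries. Filled points have an adjusted p under 0.05. Myh3 and Myh8 lie between 3.36 and 4.64 against wild type, Myh1, Myh6 and Myh7 between 1.01 and 1.50, and Myh4 at -0.35 and -0.46.

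The slow heavy chain Myh7 stood at 121, 89.4, 60.9 and 102 CPM in wild type, with the lowest value in replicate 3. It stood at 224, 236 and 247 CPM in Raptor-knockout muscle and at 302, 275, 308 and 172 CPM in the double knockout, where replicate 4 was lowest but still above all wild-type libraries. The log2 fold change was 1.34 ± 0.22 in the Raptor knockout (edgeR adjusted p = 0.000596) and 1.50 ± 0.21 in the double knockout (adjusted p = 7.70e-05). Among the 7 libraries lacking Xist the double-knockout value was 0.70 (adjusted p = 0.117), and the Raptor-knockout comparison stayed called.

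Myh6, the cardiac alpha chain, lies directly downstream of Myh7 on the minus strand. It stood at 52.5, 24.3, 24.8 and 34.0 CPM in wild type, at 96.4, 80.1 and 93.0 in Raptor-knockout muscle and at 116, 104, 108 and 45.0 in the double knockout. Double-knockout replicate 4 overlapped wild type, and the Raptor knockout did not. The log2 fold change of Myh6 was 1.40 ± 0.32 in the Raptor knockout (edgeR adjusted p = 0.00864) and 1.46 ± 0.30 in the double knockout (adjusted p = 0.00318). Among libraries lacking Xist the double-knockout value was 0.25 (adjusted p = 0.785), and with Xist as a covariate 1.22 (adjusted p = 0.0559). Myh6 counts per 100 Myh7 counts were 36.2 ± 7.29 in wild type, 38.2 ± 4.55 in Raptor-knockout muscle and 34.5 ± 5.70 in the double knockout, so the ratio of the 2 neighbours moved by less than its spread. Of the 8 cardiac muscle markers, which include Myh6, the atrial light chain gene Myl7 was at 0 in every library, and Nppa, Nppb, Ryr2 and Mybpc3 had at most 1 count in any library. The cardiac troponin gene Tnni3 had at most 3 counts. Tnnt2, also made in immature skeletal muscle, had 5 to 16 counts in wild type, 11 to 20 in Raptor-knockout muscle and 17 to 32 in the double knockout. Of the 2 tested markers, Myh6 and Tnnt2, 2 rose in the double knockout and 1, Myh6, in the Raptor knockout. Of all tested genes, 13.0% and 8.73% rose. The 8 markers summed to 26.5 to 55.0 CPM in wild type, 83.4 to 100 in Raptor-knockout muscle and 54.9 to 123 in the double knockout.

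Myh7b was close to the limit of detection. It had 3 counts over the 4 wild-type libraries, 7 over the 3 Raptor-knockout libraries and 11 over the 4 double-knockout libraries. Relative to the summed library totals these are 0.155 CPM (95% exact Poisson interval 0.0319 to 0.452), 0.660 CPM (0.265 to 1.36) and 0.827 CPM (0.413 to 1.48). The intervals cover counting error only. They overlap between the knockouts and, in part, between wild type and each knockout. Tested with no filter on low counts, Myh7b had a log2 fold change of 1.95 ± 0.99 in the double knockout (edgeR adjusted p = 0.221) and 1.69 ± 1.07 in the Raptor knockout (adjusted p = 0.422), neither of them called.

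The adult fast isoforms did not move together. Myh4, the 2B chain, stood at 34310, 32521, 36409 and 27526 CPM in wild type, at 24086, 24773 and 22605 in Raptor-knockout muscle and at 24037, 26000, 23604 and 28911 in the double knockout. Double-knockout replicate 4 lay above wild-type replicate 4, and the other 6 knockout libraries lay below all wild-type libraries. The log2 fold change of Myh4 was -0.46 ± 0.12 in the Raptor knockout (edgeR adjusted p = 0.0158) and -0.35 ± 0.11 in the double knockout (adjusted p = 0.0290). Both calls were lost when counts were scaled by library totals, with values of -0.26 (adjusted p = 0.131) and -0.13 (adjusted p = 0.413). That scaling moved the median of all genes from 0.00 to 0.20 in Raptor-knockout muscle and from 0.02 to 0.25 in the double knockout. Among the 7 libraries lacking Xist the values were -0.43 (adjusted p = 0.0645) in Raptor-knockout muscle and -0.14 (adjusted p = 0.775) in the double knockout, and without the smaller run the double-knockout value was -0.39 (adjusted p = 0.0834). The double-knockout call was lost in 14 of 22 alternative settings, always with the same sign, among them leaving out wild-type replicate 1, 2 or 3 or double-knockout replicate 1, 2 or 3. The Raptor-knockout call was lost in 6, among them without its replicate 1 or 3.

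Myh1, the 2X chain, stood at 1907, 1823, 1310 and 1828 CPM in wild type, at 2873, 4919 and 2595 in Raptor-knockout muscle and at 3887, 2865, 5619 and 6579 in the double knockout. All 7 knockout libraries were above all wild-type libraries. The log2 fold change of Myh1 was 1.01 ± 0.29 in the Raptor knockout (edgeR adjusted p = 0.0289) and 1.46 ± 0.27 in the double knockout (adjusted p = 0.00181). Without Raptor-knockout replicate 2, the highest library of its group, the Raptor-knockout value was 0.67 (adjusted p = 0.0987), and the call was also lost without any 1 of the 4 wild-type libraries, with values of 1.09, 1.06, 0.87 and 1.04 without replicates 1 to 4 in turn (adjusted p from 0.0534 to 0.0931). The 2 highest double-knockout libraries were those of the smaller run, and without that run the double-knockout value was 0.97 (adjusted p = 0.0162).

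Myh2, the 2A chain, stood at 1518, 1540, 946 and 2492 CPM in wild type, at 1496, 1787 and 1640 in Raptor-knockout muscle and at 1751, 1541, 1921 and 1542 in the double knockout. The wild-type libraries spanned the range of both knockouts. Its log2 fold change was 0.02 ± 0.23 in the Raptor knockout (edgeR adjusted p = 0.976) and 0.06 ± 0.22 in the double knockout (adjusted p = 0.872), so changes smaller than this spread were not detectable.

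As shares of the summed counts of the 8 genes, which do not depend on how libraries are scaled against each other, Myh4 was a smaller part of the family in both knockouts. Myh4 made up 90.5, 90.3, 93.9 and 86% in wild type, 83.5, 77.7 and 82.9% in Raptor-knockout muscle and 79.6, 84.2, 74.5 and 77.3% in the double knockout. Every knockout library thus had a lower Myh4 share than every wild-type library. A share also falls when another member rises, so these values alone do not show a lower level of Myh4. The Myh1 share was 4.80 ± 0.996% in wild type, 11.6 ± 3.29% in Raptor-knockout muscle and 14.4 ± 4.08% in the double knockout. Per 100 Myh4 counts there were 5.35 ± 1.27, 14.4 ± 4.71 and 18.4 ± 5.99 Myh1 counts. The Myh2 share was 4.63 ± 2.26%, 5.60 ± 0.414% and 5.24 ± 0.874%, which overlapped among groups.

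The rarer members differed by larger factors. Myh7 and Myh6 together made up 0.355 ± 0.108% of the family in wild type, 1.12 ± 0.129% in Raptor-knockout muscle and 1.13 ± 0.370% in the double knockout. Myh3 and Myh8 together made up 0.0169 ± 0.00707%, 0.274 ± 0.0600% and 0.387 ± 0.0378%, with 0.0254% in the highest wild-type and 0.209% in the lowest knockout library. The 3 adult fast genes still held 99.6 ± 0.113% of the family in wild type, 98.6 ± 0.125% in Raptor-knockout muscle and 98.5 ± 0.376% in the double knockout. The family as a whole took 3.28 ± 0.398% of all library counts in wild type, 3.04 ± 0.193% in Raptor-knockout muscle and 3.45 ± 0.192% in the double knockout. The wild-type range, 2.77 to 3.72%, covered both, and the knockouts lay side by side with the highest Raptor-knockout library at 3.26% and the lowest double-knockout library at 3.27%. Double-knockout replicate 4 had the lowest Myh7, Myh6 and Myh3 shares of its group (0.459, 0.120 and 0.124%) and the highest Myh8 share (0.263%).

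**Figure D3:**
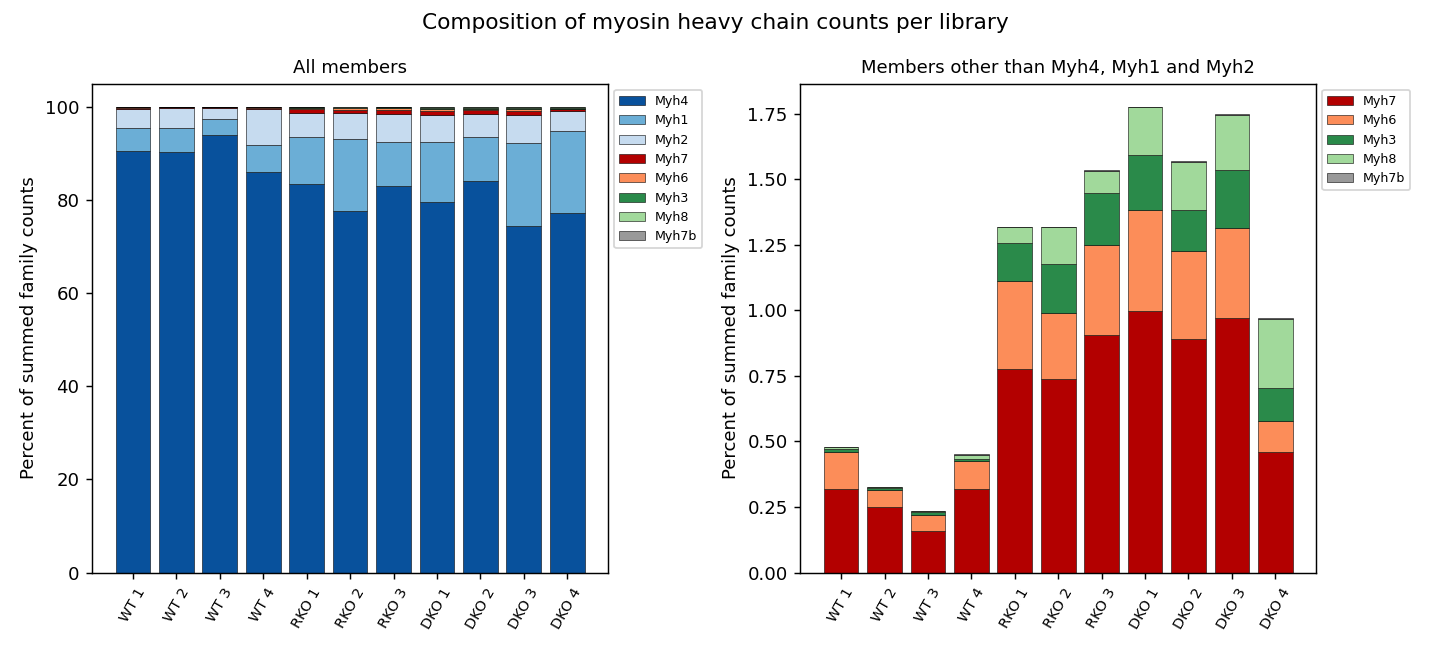
Percent of the summed counts of the 8 genes (vertical axes) in each library (horizontal axes, WT wild type, RKO Raptor knockout, DKO double knockout), for all members on the left and for the 5 rarer members on the right. The Myh4 bars run from 86 to 93.9% in wild type and from 74.5 to 84.2% in the knockouts.

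The double knockout was set against the Raptor knockout, as labelled, to ask what deletion of mTOR adds to that of Raptor. Xist was present in double-knockout replicates 1 to 3 and in no Raptor-knockout library, and the smaller run held no Raptor knockout. Genotype, Xist status and run can therefore not be fully told apart here. No member was called (0 of 7), where 0.0286% of all tested genes, 3 genes, were called by edgeR (0.00952% higher, 0.0190% lower), 88 by the DESeq2 Wald test, and 997 genes had an unadjusted p under 0.05. Myh8 was the 1 member whose groups did not overlap, against 12.2% of tested genes (5.18% higher, 7.03% lower). Its log2 difference was 1.28 ± 0.34 (edgeR adjusted p = 0.195, unadjusted p = 0.00223). The DESeq2 Wald test called it (1.29, adjusted p = 0.0246), and so did edgeR without Raptor-knockout replicate 2 (1.77, adjusted p = 0.0465), whereas without the smaller run the value was 0.98 (adjusted p = 0.542). With Xist as a covariate the Myh8 difference was 1.72 (edgeR adjusted p = 0.584), and among libraries lacking Xist, with a single double knockout, it was 1.79. Myh8 counts per 100 Myh3 counts ran from 41.6 to 75.5 in Raptor-knockout muscle and from 87.9 to 212 in the double knockout, with a mean of 79.0 ± 42.0 in wild type.

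The other members differed by 0.12 ± 0.20 (Myh3), 0.45 ± 0.29 (Myh1), 0.04 ± 0.23 (Myh2), 0.11 ± 0.12 (Myh4), 0.06 ± 0.31 (Myh6) and 0.16 ± 0.22 (Myh7), all as log2 ± SE. Without the smaller run the Myh1 difference was -0.04, so its sign rests on the 2 libraries of that run. It was 0.93 among libraries lacking Xist, 0.86 with Xist as a covariate and 0.79 without Raptor-knockout replicate 2, and not called under any of these. A difference of the size of these errors was not detectable with 3 and 4 libraries.

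Within the chromosome 11 cluster, neighbours went in opposite directions. From Myh3 to the end of Myh13 the cluster spans 293 kb. A pair of noncoding genes on its minus strand fell where Myh3, Myh8 and Myh1 rose. They lie outside the rule by which genes were named and were picked after their values were seen. 2310065F04Rik (chr11:67112461-67120080), a long intergenic RNA listed in RefSeq with the synonym linc-Myh, has its 3' end 10.2 kb past the end of Myh3. Its levels were 103, 132, 52.6 and 109 CPM in wild type, 19.0, 10.3 and 16.7 in Raptor-knockout muscle and 10.4, 12.1, 6.63 and 11.3 in the double knockout, with no overlap between wild type and either knockout. The log2 fold change of 2310065F04Rik was -2.68 ± 0.31 (edgeR adjusted p = 6.72e-05) and -3.28 ± 0.29 (adjusted p = 3.08e-06).

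Myhas (chr11:67211256-67237573), annotated as antisense, overlaps Myh1 by 13.3 kb, and its own start is 0.456 kb before the GENCODE start of Myh4 on the other strand. The RefSeq start of Myh4, used for the promoter window, lies earlier, and the Myhas start falls inside that window. Myhas fell from 41.2 ± 6.81 CPM to 21.7 ± 6.56 in the Raptor knockout (-0.92 ± 0.21, edgeR adjusted p = 0.00579) and 15.9 ± 2.09 in the double knockout (-1.37 ± 0.20, adjusted p = 8.84e-05). The strand setting of the authors' counting was not stated in the sources used here, and reads of Myh1 and Myhas in the overlap cannot be told apart with certainty. The extraocular isoform Myh13, at the end of the cluster, had 35 counts in all 11 libraries together and was not tested.

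**Figure D4:**
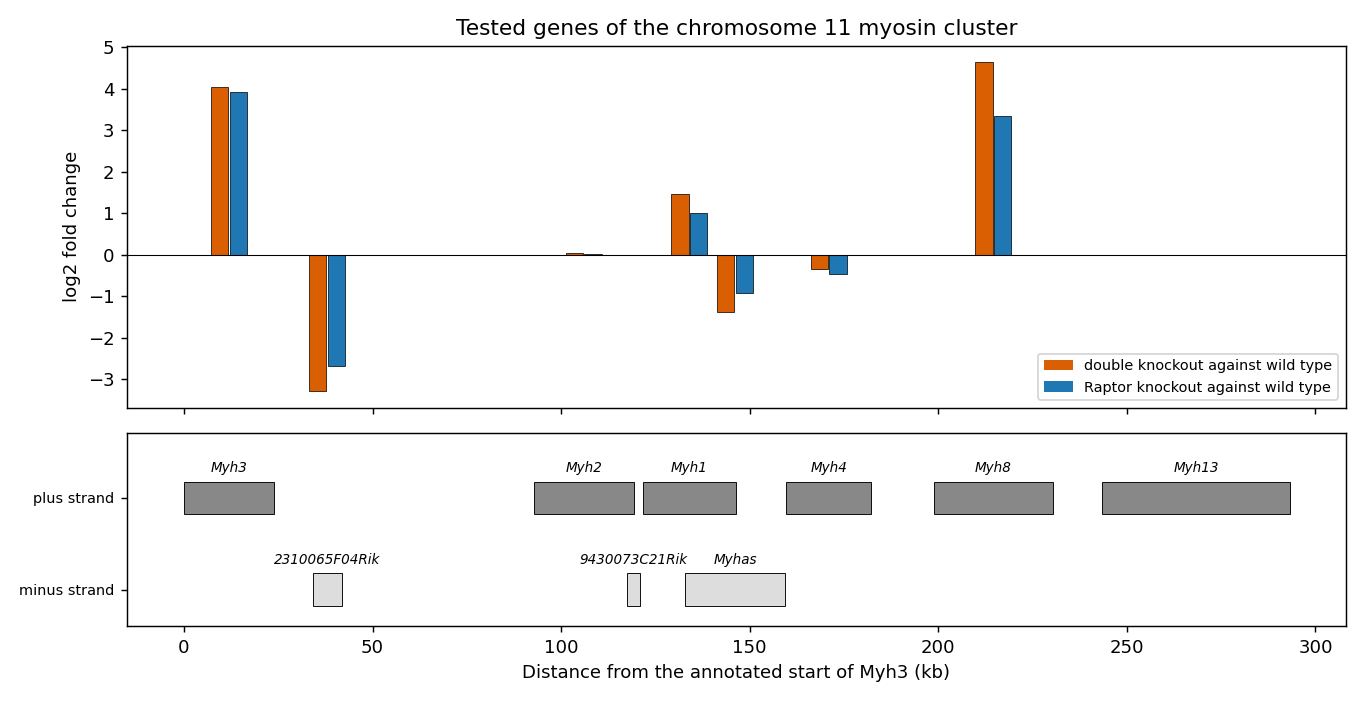
Genes of the chromosome 11 cluster by distance in kb from the annotated Myh3 start (horizontal axis), with their log2 fold changes against wild type (upper panel, bars at the gene centres, edgeR) and their strand and extent (lower panel). Myh13 and 9430073C21Rik were not tested and have no bar. 2310065F04Rik, between Myh3 and Myh2, has the lowest values, -3.28 and -2.68.

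Proteins that work beside the heavy chains also come in fast and slow forms. The gene lists here and below were chosen with earlier results of these data known, so their counts and medians are a description. Of 13 slow-fibre partners tested, 10 rose and 0 fell in the double knockout, and 9 rose and 0 fell in the Raptor knockout, with median log2 fold changes of 1.29 and 1.24 against 0.02 and 0.00 over all tested genes. Of all tested genes, 13.0% and 8.73% rose. Tnni1, slow troponin I, rose from 30.3 ± 7.48 CPM to 135 ± 14.1 in Raptor-knockout muscle and 138 ± 40.8 in the double knockout. Actn2, counted in this slow list although it is the Z-disc actinin of all fibre types, rose from 239 ± 107 to 1066 ± 67.2 and 1016 ± 111 CPM. Myoz2, a calcineurin-binding Z-disc protein of slow fibres, rose from 104 ± 24.7 to 361 ± 40.6 and 343 ± 83.5 CPM. Mybpc1, slow myosin-binding protein C, was not called, at 0.17 and 0.37 on the log2 scale in the double and the Raptor knockout.

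Of 13 fast-fibre partners, 8 fell and 2 rose in the double knockout, and 7 fell and 2 rose in the Raptor knockout, with medians of -0.44 and -0.57. Of all tested genes, 13.7% and 9.43% fell. Tpm1, alpha-tropomyosin, fell from 19938 ± 733 CPM to 9851 ± 920 in Raptor-knockout muscle and 7985 ± 446 in the double knockout. Tnni2 and Tnnt3, the fast troponins I and T, fell by 0.89 and 0.89 (log2) in Raptor-knockout muscle and by 1.12 and 1.10 in the double knockout. Pvalb, the calcium buffer of fast fibres, fell from 8073 ± 841 CPM to 3855 ± 1493 and 2518 ± 424. These genes were named for their small adjusted p, and their fall was larger in value than that of Myh4. The list medians lay nearer to Myh4, which was at -0.35 in the double and -0.46 in the Raptor knockout. The difference between these genes and Myh4 was not tested.

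Of 12 genes of the developing sarcomere and myotube, 8 were tested, and 5 rose in the double knockout (median 1.06) and 2 in the Raptor knockout (median 0.66), with 0 falls. The same 13.0% and 8.73% of all tested genes rose, with medians of 0.02 and 0.00. Ncam1, the neural adhesion molecule of immature and denervated fibres, rose from 6.40 ± 0.426 CPM to 17.0 ± 3.46 and 19.2 ± 6.05. Nes, the intermediate filament nestin, rose from 15.3 ± 1.53 to 40.5 ± 8.39 and 38.8 ± 6.50 CPM. Of 9 tested myogenic factors out of 12, 6 rose in the double knockout (median 0.85) and 2 in the Raptor knockout (median 0.63), beside the same shares of all tested genes. Myog, the transcription factor myogenin, rose from 5.03 ± 3.20 CPM to 66.9 ± 26.3 and 119 ± 43.8, with log2 fold changes of 3.62 ± 0.46 and 4.46 ± 0.45. Myod1 rose from 10.7 ± 1.82 to 23.4 ± 3.21 and 33.4 ± 2.58 CPM.

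**Figure D5:**
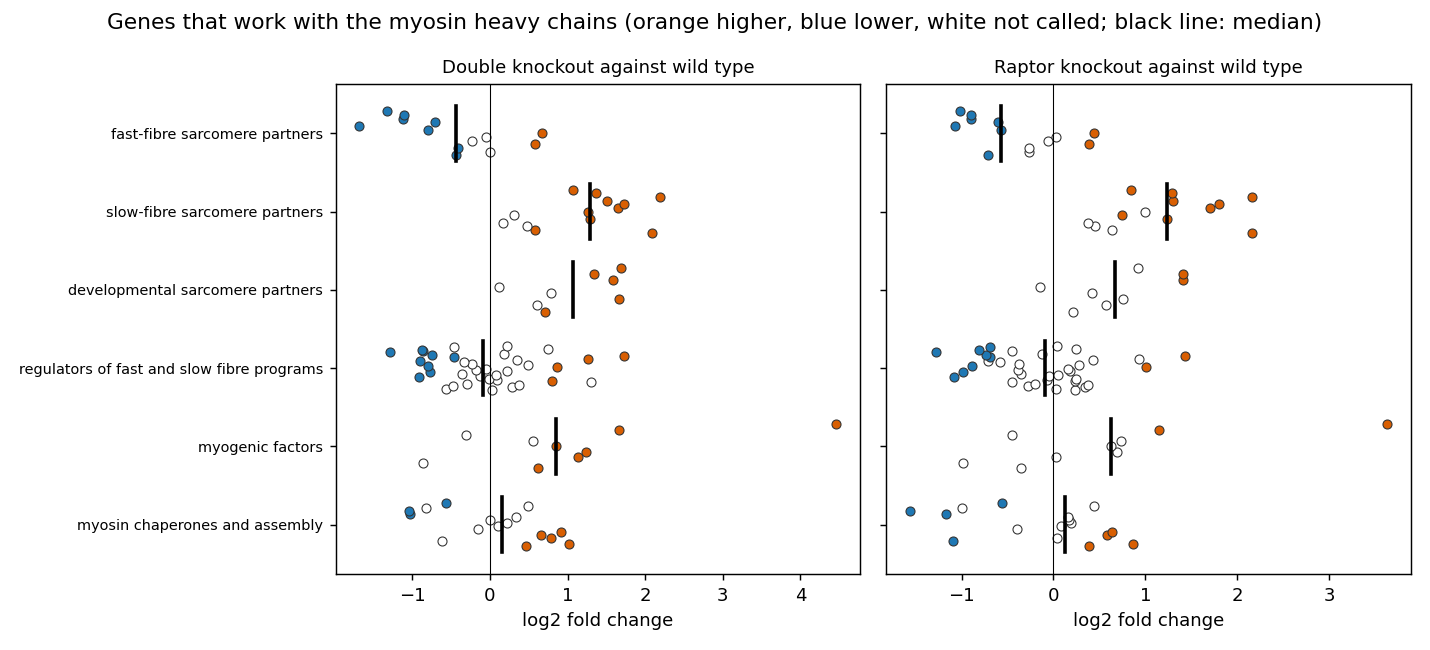
log2 fold changes against wild type (horizontal axes, edgeR) of the tested genes of 6 lists (rows), for the double knockout (left) and the Raptor knockout (right). Each point is a gene, filled where called, and the vertical black line is the list's median. Slow-fibre partners have medians of 1.29 and 1.24 and fast-fibre partners of -0.44 and -0.57.

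Of 36 regulators of fast and slow fibre programs, 4 rose and 9 fell in the double knockout and 2 rose and 8 fell in the Raptor knockout, with medians of -0.09 and -0.10. Together that is 13 of 36 and 10 of 36, against 26.7% and 18.2% of all tested genes. Sox6, a repressor of slow-fibre genes, fell from 146 ± 12.3 CPM to 60.1 ± 11.3 in Raptor-knockout muscle and 59.8 ± 7.72 in the double knockout. Maf, a transcription factor of the same list, fell from 481 ± 90.7 to 227 ± 20.1 and 255 ± 36.1 CPM. Rcan1, a calcineurin regulator, rose from 32.4 ± 4.48 to 87.2 ± 4.42 and 107 ± 35.3 CPM.

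Of 16 genes of myosin folding and thick filament assembly or turnover, 5 rose and 3 fell in the double knockout and 4 rose and 4 fell in the Raptor knockout, with medians of 0.16 and 0.12, where 26.7% and 18.2% of all tested genes were called. The chaperones that rose included Cct4, a subunit of the TRiC chaperonin (1.02 ± 0.11 in the double and 0.87 ± 0.12 in the Raptor knockout), Hspa8 (0.92 and 0.64) and Hsp90ab1 (0.66 and 0.58). Unc45b, the dedicated myosin chaperone, named here after its values were seen, fell by 0.57 ± 0.14 in the double knockout (edgeR adjusted p = 0.00759) and by 0.56 ± 0.16 in the Raptor knockout (adjusted p = 0.0188). Trim63, the ubiquitin ligase MuRF1 that targets thick filament proteins, fell by 1.56 ± 0.33 in the Raptor knockout (edgeR adjusted p = 0.00698). Of 13 tested class II and unconventional myosins outside the 8 genes, 3 rose in the double knockout, and 2 rose and 1 fell in the Raptor knockout, where 26.7% and 18.2% of all tested genes were called. The nonmuscle heavy chain Myh10 rose from 17.6 ± 4.76 CPM to 37.2 ± 11.2 and 36.2 ± 1.77. 

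Markers of some other cells moved with the knockouts as well. Over all tested genes 13.0% rose in the double and 8.73% in the Raptor knockout, and the marker counts are to be read against these shares. Of 11 tested macrophage and monocyte markers, 6 rose in the double and 5 in the Raptor knockout, and the summed level of the 12 markers ran from 80.1 to 148 CPM in wild type, 128 to 258 in Raptor-knockout muscle and 176 to 231 in the double knockout. Of 10 fibroblast and fibro-adipogenic markers, 8 and 4 rose, with sums of 717 to 1091, 1156 to 1276 and 1266 to 1488 CPM. The 7 satellite cell markers, of which 3 were tested and 0 called, summed to 24.0 to 30.8, 27.9 to 39.3 and 25.3 to 33.9 CPM. Of 9 endothelial markers, 8 were tested and 0 called, with sums of 177 to 257, 177 to 214 and 172 to 208 CPM. At an unadjusted p under 0.05, edgeR counted 0 satellite and 1 endothelial marker in the double knockout and 1 of each in the Raptor knockout. Of 9 smooth muscle and pericyte markers, 8 were tested and 2 rose in each knockout. The 9 summed to 2591 to 3006, 3573 to 3941 and 3808 to 4010 CPM, mostly of Des, which is also among the skeletal fibre markers. Of 5 tested nerve and Schwann markers 1 rose in the double and 0 in the Raptor knockout, with sums of 108 to 133, 94.6 to 241 and 131 to 322 CPM. Of 9 skeletal fibre markers 2 rose and 2 fell in each knockout, with sums of 82674 to 101043 CPM in wild type, 76679 to 87593 in Raptor-knockout muscle and 75682 to 93991 in the double knockout. The part of other cells in the myosin values was not tested.

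Across the 11 libraries, the genes most like each member were listed by Pearson correlation of log2 CPM over 6548 genes, as a description, since all genes share the libraries, their depth and the group differences. Myh7 was closest to Myl2 (r = 0.991), Tnnt1 (0.988) and Tnni1 (0.983), 3 slow sarcomere genes. Myh6 was closest to Cd2bp2 (0.977), Tnnt1 (0.973) and Myh7 (0.961). Myh3 was closest to Adprhl1 (0.982), Snrnp200 (0.981) and the titin-associated repeat protein gene Ankrd1 (0.978). Myh8 was closest to the elongation factor gene Eef2 (0.987) and the ribosomal protein genes Rpl23a (0.981) and Rpl27a (0.980). Myh4 was closest to Ybx3 (0.954), Desi2 (0.946) and Tma7 (0.939), and Myh1 to Arpp21 (0.958), Amer1 (0.947) and Serbp1 (0.941). Myh2 had the weakest matches, Tnfaip2 (0.900), Fhod1 (0.864) and Synpo (0.859).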

How the data were processed

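RNA from 11 gastrocnemius libraries was read as 3' tags. Per the submitters' processing notes, the tools were RSEM 1.3.3, STAR 2.7.0 and fastp 0.20.0, with the build GRCm38 (mm10). The authors deposited expected counts per gene, not normalized, in 2 sequencing runs, and TPM in a table over the libraries of both. The annotation, strand setting and filters are not given in the sources used here. Another 6 deposited columns fit no sample's label, so they were left out.

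The expected counts, of which 2.25% were fractional, were rounded first. Library totals ran from 2791339 to 6328533 counts. No 2 libraries agreed within sampling noise. The test was edgeR 4.0.16 in R 4.3.3 (filterByExpr, TMM, robust quasi-likelihood over all 3 groups, two-sided F test), with Benjamini-Hochberg adjustment over all 10505 tested genes and calls at an adjusted p under 0.05. The SE is the log2 fold change over the square root of its F statistic. Shares are percentages of the summed counts of the 8 genes, with no test and no division by length, since a transcript gives tags at its end. The edgeR steps were tested on simulated data. Positions are from GENCODE M21, and sequences from RefSeq (GRCm38.p6) or from GENCODE transcripts of the same build.

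The members and gene lists were chosen with earlier results of these data known. Genes were named by rule: all members, Rptor and Mtor, up to 4 genes of each list with the smallest adjusted p in a comparison (or the 2 with the highest level where none passed), and the 3 genes most like each member. Alternatives were DESeq2 size factors, library totals, no filter, only the groups compared, run or Xist as a covariate, leaving out the smaller run, only libraries lacking Xist, the DESeq2 1.42.0 Wald test, limma 3.58.1 on log2 TPM (pseudocount 1 or 0.1), and leaving out each library.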

Additional observations from a re-analysis of the deposited data

Results flagged for a closer look

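A single library lay far from the others of its group of 4 in 2 of 32 group values checked, where chance flags about 1 in 20. Myh1 in wild-type replicate 3 stood at 1310 CPM, against 1823 to 1907 CPM in the other 3 wild-type libraries. This library is the 1 wild-type library with Xist, and it also had the lowest Myh2 and Myh7 levels and the highest Myh4 level of its group. Without it the Myh1 rise was 0.87 in the Raptor knockout (log2, edgeR adjusted p = 0.0931).

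Myh6 in double-knockout replicate 4 stood at 45.0 CPM, against 104 to 116 CPM in the other 3 double-knockout libraries. This library is the 1 double-knockout library without Xist and belongs to the smaller run. It had the lowest Myh7 and the highest Myh1 and Myh8 levels of its group. The part of Xist status and of the run in these values was not tested beyond the fits already given.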

How the results depend on the processing

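Each comparison was recomputed under 22 settings, 11 of which left out 1 library. No paired analysis was possible because the labels give no replicate numbers shared between groups. Myh3 and Myh8 stayed called against wild type under all 22 settings in both knockouts, as did Myh1 in the double knockout and Myh6 and Myh7 in the Raptor knockout. The number of members called in the double knockout was 3 (3 higher, 0 lower) among libraries lacking Xist and 5 to 6 with 1 library left out. In the Raptor knockout it was 5 to 6 with 1 library left out. Between the knockouts it was 1 (Myh8) with the DESeq2 Wald test and 0 to 1 with 1 library left out. The Myh4 call was lost under 14 settings in the double and 6 in Raptor-knockout muscle, and the Myh1 call in the Raptor knockout under 6, among them leaving out any 1 wild-type library.

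On the log2(TPM + 1) scale, which compresses low genes, Myh8 was 1.90 in Raptor-knockout muscle and 3.10 in the double knockout, and Myh3 2.61 and 2.75. Signs turned only for values that were not called. Among libraries lacking Xist, Myh2 was -0.29 in the double and -0.20 in Raptor-knockout muscle, and between the knockouts Myh2 was -0.081, Myh3 -0.16, Myh6 -0.99 and Myh7 -0.45 (log2). With Xist as a covariate Myh2 was -0.050 in Raptor-knockout muscle, and between the knockouts Myh3 was -0.029 and Myh6 -0.25. Myh1 between the knockouts was -0.037 with run as a covariate and -0.037 without the smaller run. Myh2 in the Raptor knockout was -0.0067 with DESeq2 size factors, -0.0067 with the DESeq2 Wald test and -0.036 with no filter. With 1 library left out, Myh2 ran from -0.15 to 0.34 in the double knockout, from -0.21 to 0.30 in Raptor-knockout muscle and from -0.027 to 0.11 between the knockouts, Myh3 between the knockouts from -0.0094 to 0.23 and Myh6 from -0.054 to 0.29. The cause was not tested.

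On the TPM scale the Myh6 share was 1.17% in wild type, 3.77% in Raptor-knockout muscle and 3.61% in the double knockout, and the Myh7b share 0.00520, 0.0164 and 0.0210%. In the 1 double-knockout library lacking Xist the shares were 4.12% (Myh2), 0.124% (Myh3), 0.120% (Myh6), 0.459% (Myh7), 0.263% (Myh8) and 0.00155% (Myh7b). Depth limits Myh7b, and Myh3 and Myh8 in wild type, which rest on at most 21 counts a library.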
